A study of Mus musculus with 12 samples.

Results

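The Hox genes encode homeodomain transcription factors that assign position along the body axis, and they were read here in kidneys taken whole on postnatal day 28 from male mice of the C57BL/6J strain. The members were all probes annotated to a symbol of Hoxa, Hoxb, Hoxc or Hoxd followed only by a number, which gave 57 of the array's 45281 probes, for 38 genes. The array was an Illumina expression array with 1 array for each of 12 kidneys. In the ethanol group (6 kidneys) the mothers drank 10% ethanol (v/v) freely from fertilization to gestation day 8.5. The control group (6 kidneys) is labelled only as control, and what its mothers drank is not stated in the labels. The dam and litter of each kidney are not given either, and the p-values therefore cover no more than the spread among these kidneys.

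In mammals the Hox genes lie in 4 clusters, HoxA to HoxD, and genes at the same place in different clusters form a paralog group, numbered from the 3′ end. Groups 1 to 3 are called anterior, 4 to 8 central and 9 to 13 posterior, because genes with higher numbers are switched on later and further back in the embryo. The definitive kidney arises from posterior intermediate mesoderm after the day on which the ethanol exposure ended. In mice the group 11 genes act with Eya1 and Pax2 in the mesenchyme that induces the ureteric bud, group 10 genes are needed in the stroma, and the Hoxb7 promoter is widely used to drive transgenes in the ureteric bud and collecting duct. Many Hox genes keep their regional expression in adult tissues.

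The promoters below are those of the genes with a probe at an unadjusted p under 0.05 in the comparison of ethanol with control that the RefSeq table holds: Hoxa2, Hoxa5 and Hoxd4, which read higher in ethanol, and Hoxd9, which read lower. Each runs 5′ to 3′ on the strand of its gene from 250 bases before the start to 50 after it, from RefSeq, build GRCm38.p6, and capitals mark TAAT on either strand, the core that most homeodomains bind.
Hoxa2, chr6:52164782-52165081, minus strand: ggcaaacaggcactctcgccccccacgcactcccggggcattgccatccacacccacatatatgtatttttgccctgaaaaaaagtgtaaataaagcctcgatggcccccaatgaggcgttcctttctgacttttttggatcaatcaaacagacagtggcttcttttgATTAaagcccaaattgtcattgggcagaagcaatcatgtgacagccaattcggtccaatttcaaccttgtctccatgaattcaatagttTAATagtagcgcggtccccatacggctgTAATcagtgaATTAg
Hoxa5, chr6:52204538-52204837, minus strand: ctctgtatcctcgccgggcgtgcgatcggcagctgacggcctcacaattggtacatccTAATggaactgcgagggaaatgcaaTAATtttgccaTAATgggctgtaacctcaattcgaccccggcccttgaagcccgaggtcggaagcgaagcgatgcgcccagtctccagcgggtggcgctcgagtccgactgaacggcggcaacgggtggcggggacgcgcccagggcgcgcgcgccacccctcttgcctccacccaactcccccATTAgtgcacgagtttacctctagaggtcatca
Hoxd4, chr2:74721728-74722027, plus strand: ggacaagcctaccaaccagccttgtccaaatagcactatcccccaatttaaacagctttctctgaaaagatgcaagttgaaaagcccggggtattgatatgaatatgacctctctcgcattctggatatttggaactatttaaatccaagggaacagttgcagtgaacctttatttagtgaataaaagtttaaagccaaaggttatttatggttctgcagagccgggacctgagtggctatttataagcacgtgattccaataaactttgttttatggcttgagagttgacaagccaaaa
Hoxd9, chr2:74697513-74697812, plus strand: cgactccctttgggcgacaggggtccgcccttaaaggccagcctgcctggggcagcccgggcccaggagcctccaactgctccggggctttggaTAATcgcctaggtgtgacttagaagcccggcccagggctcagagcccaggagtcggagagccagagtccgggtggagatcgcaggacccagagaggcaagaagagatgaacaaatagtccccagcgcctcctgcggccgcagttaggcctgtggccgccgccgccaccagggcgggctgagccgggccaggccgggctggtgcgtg
The table held 24 promoters for 22 of the 38 Hox genes, and 19 of the 24 (79.2%) held TAAT, against 58.0% of all 32851 promoters. Hoxa2 and Hoxa5 held 4 matches each, Hoxd9 held 1 and Hoxd4 held none. The longer letters TGATNNAT, a site of Hox with its cofactor Pbx (searched on both strands, and able to overlap TAAT), were in 4 of the 24 (16.7%) and in 8.85% of all promoters. Of the 4 shown, only that of Hoxa2 held them. CpG dinucleotides numbered 4 to 45 in the Hox promoters, with a median of 14.5, against 7 over all promoters. Hoxa5 had 29, Hoxd9 had 20, Hoxa2 had 9 and Hoxd4 had 4. The median was 14 in 15 promoters of Hox genes with a tested probe and 20 in 9 promoters of the other Hox genes, a difference that was not tested.

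Before the results, 3 facts of the arrays bear on them. Between 50.4% and 56.9% of the probes lay over background on an array, 50.4% to 54.9% in ethanol and 52.1% to 56.9% in control kidneys. Of the variance over the 23984 tested probes, 32.6% lay on the first principal component, and its scores ran from -24.9 to 45.7 in ethanol and from -62.5 to 23.4 in control kidneys, with ethanol 2 and 3 at the high end and control 4 at the low end. The mean of the tested Hox probes, centred over the 12 arrays, lay between -0.01 and 0.10 in ethanol kidneys, and in controls it lay between -0.04 and 0.09 apart from control 6, at -0.24. Control 6 was the lowest of the 12 kidneys for 9 of the 33 tested Hox probes and control 4 for 6 of them. How often each kidney was lowest over all tested probes was not counted. The tissue was kidney by its markers: all 9 of the 9 kidney marker genes on the array were over background on 12 of 12 arrays, among them Umod and Slc34a1. Lists of other cell types are given beside the Hox probes that moved with them. In bulk tissue, fewer cells of a type and less RNA per cell cannot be told apart.

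Kidneys at this age gave probes over background for a broad, gapped set of Hox genes from group 2 to group 13. Many genes had 1 probe, so a silent gene and a probe that does not read its gene cannot be told apart. A probe counted as over background on an array where its deposited intensity had a normal probability under 0.05 given that array's background, and probes that did so on 6 or more of the 12 arrays entered the test. Of the 57 Hox probes, 33 (57.9%) were tested, against 53% of all probes on the array, and they stand for 25 of the 38 genes. Of the 57 probes, 30 (52.6%) were over background on 12 of 12 arrays, against 40.6% of all probes, 3 on 6 to 11, 15 on 1 to 5 and 9 (15.8%) on none, against 28.3% of all. The share on 1 to 11 arrays, 31.6%, was near the 31.2% of all probes.

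In the HoxA cluster, Hoxa2, Hoxa4, Hoxa5, Hoxa7, Hoxa9, Hoxa11 and Hoxa13 had a probe over background on all arrays. Hoxa3, Hoxa6 and Hoxa10 did not, with at most 5, 1 and 1 arrays. The HoxB cluster was read without a gap from Hoxb2 to Hoxb7, and again at Hoxb9. Hoxb8 was over background on 5 arrays, and Hoxb1 and Hoxb13, the outer genes of the cluster, on none. In HoxC the genes read on all arrays were Hoxc4, Hoxc6, Hoxc9 and Hoxc10. Hoxc13 was dim, over background on 8 arrays, while Hoxc5 was so on none, Hoxc8 on 4, and Hoxc11 and Hoxc12 on 1 each. In HoxD the run from Hoxd8 to Hoxd11 and the pair Hoxd3 and Hoxd4 were read on all arrays, and Hoxd1, Hoxd12 and Hoxd13 on 2, 1 and 2.

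**Figure D1:**
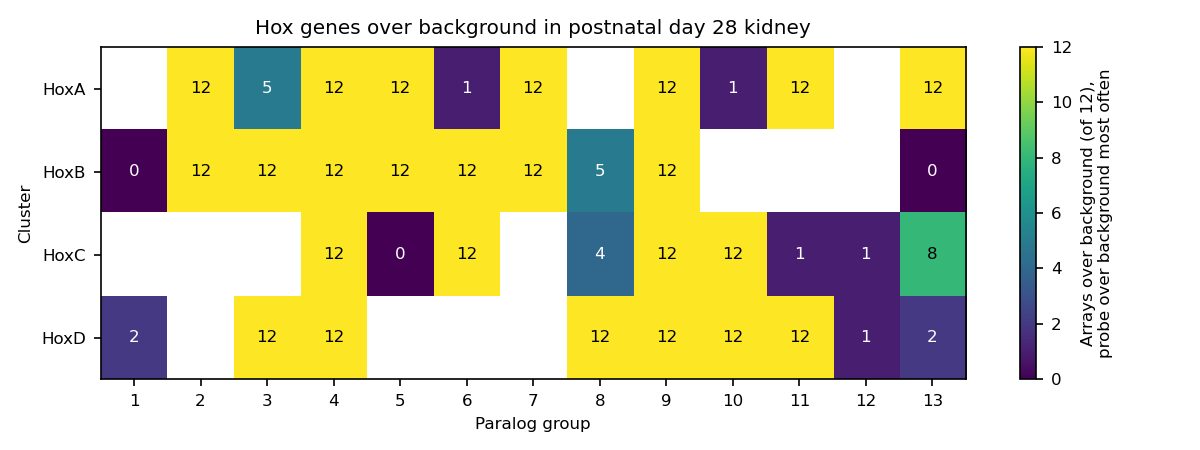
Number of arrays, of 12, on which each Hox gene was over background, by cluster (rows) and paralog group (columns), taking the probe of the gene that was over background most often; blank cells have no probe analysed here. Of the genes, 25 sit at 6 or more arrays, and HoxB is filled from group 2 to group 7.

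By paralog group, both analysed genes of group 1 and both of group 12 fell short of the filter. All 4 genes of group 4 (Hoxa4, Hoxb4, Hoxc4, Hoxd4) and all 4 of group 9 (Hoxa9, Hoxb9, Hoxc9, Hoxd9) passed it, as did both of group 2 and both of group 7. Group 8 passed through Hoxd8 alone of 3 genes. Groups 3, 5, 6, 10 and 11 passed with 2 of 3 genes each, and group 13 with 2 of 4.

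Brightness differs between probes by design, so the levels are given for each probe and not ranked between genes. All are log2 intensity after background correction and quantile normalization, and each is the mean of the 12 kidneys. In group 2, Hoxb2 averaged 9.75, and the Hoxa2 probes 5.97 and 6.46. In group 3, Hoxd3 averaged 7.86, and the 4 tested Hoxb3 probes between 5.17 and 6.10. The group 4 means were 6.78 for Hoxa4, 9.42 for Hoxb4, 5.99 for Hoxc4 and 9.36 for Hoxd4.

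In group 5, Hoxa5 averaged 9.83 and Hoxb5 9.68, and in group 6 Hoxb6 averaged 9.52 and Hoxc6 11.03. The group 7 probes averaged 10.67 for Hoxa7 and 11.57 and 11.06 for Hoxb7, and Hoxd8 averaged 12.80. In group 9, both Hoxa9 probes averaged 7.25 and 7.47, Hoxb9 8.16, Hoxc9 9.14, and both Hoxd9 probes 9.14 and 9.07. In group 13, Hoxa13 averaged 6.29 by its tested probe and Hoxc13 5.04.

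The probes of a gene did not always tell the same story. For Hoxa13, a gene of the most posterior body parts, ILMN_3087004 was over background on 12 arrays, ILMN_1237317 on 5 and ILMN_3015589 on 3. Of the Hoxd11 probes, ILMN_1231215 was over background on 12 arrays and ILMN_2433570 on none. Another Hoxa9 probe, ILMN_2772762, was so on 4 arrays where the others were so on 12. In the RefSeq table the spans of Hoxb3 and Hoxb4, of Hoxd3 and Hoxd4, of Hoxd10 and Hoxd11, and of Hoxa3 with Hoxa4, Hoxa5 and Hoxa6 overlap, and which transcript each probe reads was not given, so signals of these neighbours are uncertain.

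Of the group 11 genes, which take part in kidney induction, Hoxa11 and, by 1 of its 2 probes, Hoxd11 were over background, and Hoxc11 was not. Hoxa11 read 7.50, 7.67, 7.62, 7.36, 7.32 and 6.87 on the log2 scale in ethanol kidneys 1 to 6 and 7.36, 7.77, 7.36, 7.50, 7.48 and 7.37 in control kidneys 1 to 6. Ethanol 6 was low and control 2 high, and the groups overlapped, with a difference of -0.08 ± 0.14 SE (95% interval -0.38 to 0.21). The Hoxd11 probe ILMN_1231215 read 5.72, 5.66, 5.49, 5.41, 5.68 and 5.19 in ethanol and 5.43, 5.10, 5.53, 5.26, 5.81 and 5.91 in control kidneys, all over background on their arrays. The groups overlapped almost fully, and the difference was 0.02 ± 0.15 SE (95% interval -0.30 to 0.34). Hoxc11 was over background on 1 array by 1 probe and on none by the other.

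Of the group 10 genes, Hoxc10 and Hoxd10 were read and Hoxa10 was not. Hoxd10 read 11.64, 11.87, 11.88, 11.76, 11.68 and 11.58 in ethanol and 11.66, 11.75, 11.76, 11.11, 11.57 and 11.39 in control kidneys. Control 4 was lowest, and the difference was 0.19 ± 0.12 SE (95% interval -0.07 to 0.46), or 0.11 without control 4. The Hoxc10 probe ILMN_2836888 read 10.50, 10.91, 10.58, 10.27, 10.50 and 10.19 in ethanol and 10.39, 10.63, 10.48, 10.57, 10.45 and 10.44 in control kidneys. Ethanol 2 was highest and ethanol 6 lowest, on both sides of every control, and the difference was -0.00 (95% interval -0.26 to 0.26). The other Hoxc10 probe, ILMN_2836885, read 8.86, 8.81, 8.89, 8.76, 8.77 and 8.54 in ethanol and 8.83, 9.03, 8.88, 8.83, 8.93 and 8.94 in control kidneys. Here ethanol 6 was lowest, and the difference of -0.13 ± 0.09 SE had an exact permutation p = 0.0346, two-sided and unadjusted, while its limma p was not under 0.05.

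Hoxb7, the ureteric bud and collecting duct gene, was the 1 gene whose tested probes differed in sign. Its probe ILMN_2946183 read 11.67, 11.62, 11.64, 11.68, 11.70 and 11.37 in ethanol and 11.82, 11.60, 11.70, 11.24, 11.48 and 11.30 in control kidneys, a difference of 0.09 ± 0.12 SE (95% interval -0.16 to 0.34). The probe ILMN_2946184 read 11.19, 11.03, 10.99, 11.16, 11.02 and 10.87 in ethanol and 11.37, 11.22, 11.19, 10.68, 11.10 and 10.94 in control kidneys, a difference of -0.04 (95% interval -0.30 to 0.22). By both probes control 1 was the highest kidney and control 4 the lowest, so the probes moved together from kidney to kidney while their group differences lay close to 0 on either side.

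No Hox probe separated ethanol from control kidneys after adjustment. In limma, 0 of 33 tested Hox probes had an adjusted p under 0.05, as had 0 of all 23984 tested probes (percent called 0), and the lowest adjusted p of a Hox probe was 0.379. Unadjusted, 6 Hox probes of 33 (18.2%) had a p under 0.05, 5 higher and 1 lower in ethanol, against 12.2% over all tested probes (5.35% higher and 6.81% lower). For no Hox probe did the groups fail to overlap, which happened for 0.484% of all tested probes. The differences of the 33 probes ran from -0.42 to 0.52, with 21 (63.6%) above 0 and 12 below, against 51.8% above 0 over all tested probes. Their median was 0.04, and the median over all tested probes was 0.01. The Hox median was -0.0036 without ethanol 2 and 0.09 without control 2. With no filter on dim probes, 8 of 57 Hox probes had an unadjusted p under 0.05, 6 higher and 2 lower, against 9.05% of all 45281.

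By position, the anterior probes lay furthest above 0. Over all tested probes 51.8% lay above 0, and 5.35% were higher and 6.81% lower at an unadjusted p under 0.05. Of the 8 tested anterior probes, 7 lay above 0, with a median of 0.30. At an unadjusted p under 0.05 were 3 of the 8, all higher in ethanol, 2 of them probes of Hoxb3 and 1 of Hoxa2. Of the 12 central probes, 8 lay above 0, with a median of 0.10 and 2 at an unadjusted p under 0.05, both higher. Of the 13 posterior probes, 6 lay above 0 and 7 below, with a median near 0 (-0.0019), and the 1 at an unadjusted p under 0.05 was lower. All 5 tested probes of group 3 lay above 0 (median 0.41), 4 of them of Hoxb3, while the untested Hoxa3 probe ILMN_1234863, dim in ethanol, had a measured difference of -0.50. In group 9, 4 of the 6 lay below 0 (median -0.205). Without control 6 the medians were 0.22 for the anterior, 0.04 for the central and -0.08 for the posterior probes, and 4 Hox probes had an unadjusted p under 0.05, 3 higher and 1 lower, against 9.32% of all tested probes in that setting. These are counts over probes that share arrays and, in part, genes, and the trend over groups was not tested.

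**Figure D2:**
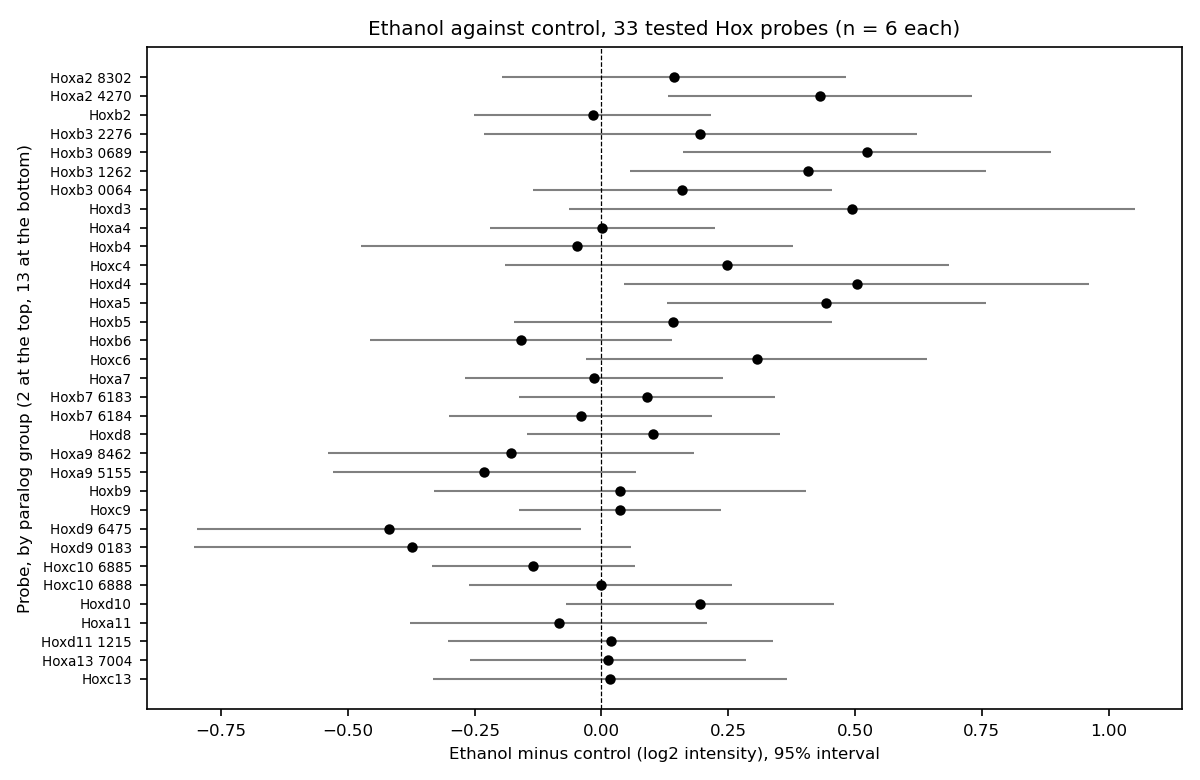
Difference of ethanol minus control in log2 intensity for each of the 33 tested Hox probes, with 95% intervals from limma (6 kidneys a group), from paralog group 2 at the top to 13 at the bottom; digits after a name end the probe's ID. The points furthest to the right, up to 0.52, belong to Hoxb3, Hoxd4, Hoxd3, Hoxa5 and Hoxa2, and those furthest to the left, down to -0.42, to Hoxd9.

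Among the anterior genes, Hoxb3 had the smallest p. Hoxb3 is a hindbrain and neck patterning gene, and its probe ILMN_2450689 read 6.15, 6.79, 6.65, 6.29, 6.10 and 6.17 in ethanol and 5.94, 6.07, 5.82, 5.39, 6.28 and 5.52 in control kidneys. Ethanol 2 and 3 were highest, control 4 and 6 lowest, and only control 5 reached into the ethanol range. The means were 6.36 ± 0.29 in ethanol and 5.84 ± 0.33 in control kidneys (SD, n = 6 each), a difference of 0.52 ± 0.17 SE (exact permutation p = 0.0152, limma adjusted p = 0.379). A second probe, ILMN_3071262, read 6.32, 6.05, 6.39, 6.13, 6.11 and 6.34 in ethanol and 5.86, 6.19, 6.00, 6.11, 5.61 and 5.12 in control kidneys. Control 6 was the lowest kidney, and the difference was 0.41 ± 0.16 SE (exact permutation p = 0.026, limma adjusted p = 0.381), or 0.27 without control 6, and its limma p was no longer under 0.05 without ethanol 3, control 5 or control 6. The other 2 tested probes gave 0.20 and 0.16, on the same side, with exact permutation p = 0.381 and 0.26.

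Hoxa2 patterns the hindbrain and second pharyngeal arch. Its probe ILMN_2874270 read 6.47, 6.98, 6.71, 6.67, 6.49 and 6.73 in ethanol and 6.31, 6.52, 5.91, 6.52, 6.31 and 5.88 in control kidneys. Controls 3 and 6 were low, and controls 2 and 4 lay inside the ethanol range. The difference was 0.43 ± 0.14 SE (exact permutation p = 0.013, limma adjusted p = 0.379), while the second probe, ILMN_2618302, gave 0.14 (exact permutation p = 0.424), or 0.29 without control 2, where its limma p was under 0.05, 0.09 without control 5 and 0.08 without control 6. Hoxb2, its paralog, differed by -0.02 (95% interval -0.25 to 0.22).

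Hoxd3 read 7.90, 8.00, 8.10, 7.91, 8.05 and 8.69 in ethanol and 7.88, 8.13, 8.13, 7.38, 7.79 and 6.37 in control kidneys. Ethanol 6 was the highest kidney and control 6 the lowest, by more than 1 on the log2 scale below the next control. The difference of 0.49 ± 0.26 SE (exact permutation p = 0.13, limma adjusted p = 0.452) was 0.24 without control 6, and 0.60 without control 2 or control 3, where its limma p was under 0.05.

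Among the central genes, Hoxa5 and Hoxd4 had an unadjusted p under 0.05. Hoxa5, known for its part in lung and axial skeleton development, read 9.81, 10.24, 10.35, 9.91, 9.93 and 10.06 in ethanol and 9.68, 10.01, 9.76, 9.23, 9.67 and 9.28 in control kidneys. Ethanol 2 and 3 were again highest and controls 4 and 6 lowest, with control 2 alone inside the ethanol range. The difference was 0.44 ± 0.15 SE (exact permutation p = 0.013, limma adjusted p = 0.379). Hoxd4, a gene whose hindbrain expression responds to retinoic acid, read 9.07, 9.58, 9.56, 9.29, 9.70 and 10.44 in ethanol and 8.95, 9.52, 9.24, 8.84, 9.45 and 8.63 in control kidneys. Ethanol 6 stood highest, and ethanol 1 and 4 lay inside the range of the controls, and the difference was 0.50 ± 0.21 SE (exact permutation p = 0.0498, limma adjusted p = 0.391). Its limma p was no longer under 0.05 without ethanol 5, ethanol 6, control 1, control 4 or control 6.

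Hoxc6 read 10.54, 11.17, 11.27, 11.21, 11.19 and 11.70 in ethanol and 10.77, 11.01, 11.08, 10.87, 10.72 and 10.79 in control kidneys. Of the ethanol kidneys 5 lay above every control and ethanol 1 lay below every control. The difference was 0.31 ± 0.16 SE (exact permutation p = 0.0909, limma adjusted p = 0.442), or 0.20 without ethanol 6 and 0.43 without ethanol 1, where its limma p was under 0.05. The remaining central genes gave smaller differences, from -0.16 for Hoxb6 to 0.25 for Hoxc4, with Hoxa4 at 0.00 and Hoxa7 at -0.01. The Hoxc4 difference was 0.12 without control 1, 0.16 without control 3 and 0.40 without control 4, where its limma p was under 0.05. Hoxb4 differed by -0.05 with all kidneys and by -0.26 without control 6, where its limma p was under 0.05.

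**Figure D3:**
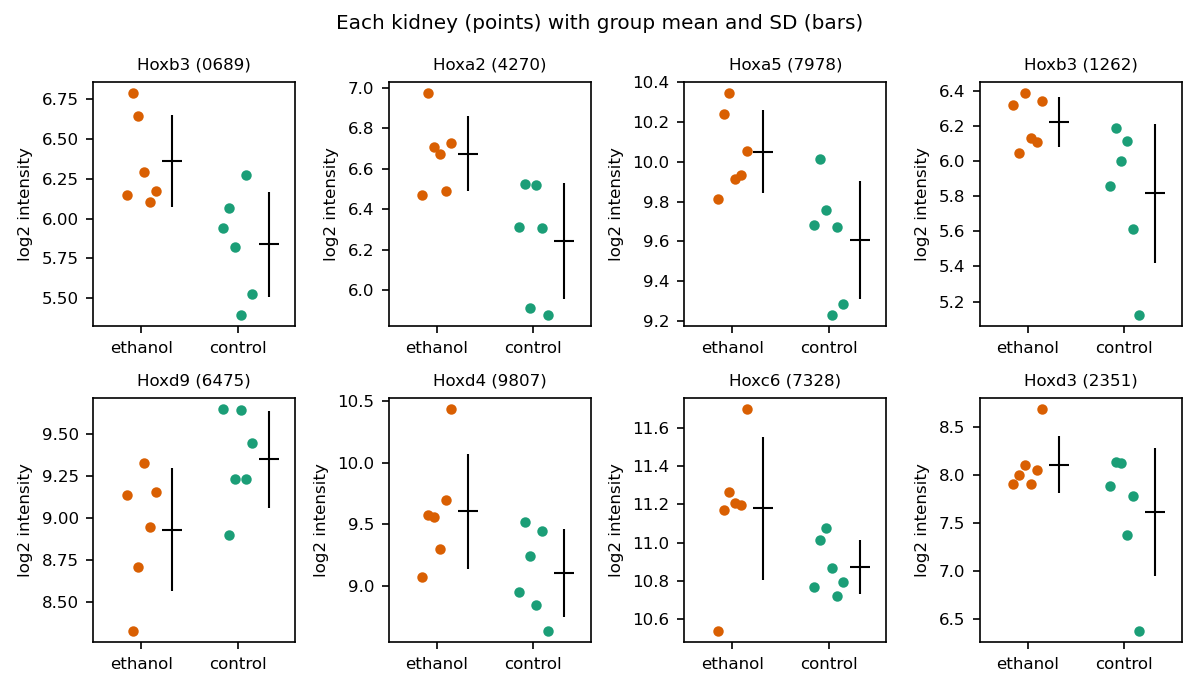
Log2 intensity in each of the 12 kidneys (points) with group mean and SD (bars, n = 6 each) for the 8 tested Hox probes with the smallest unadjusted p; digits in brackets end the probe's ID. The groups overlap in every panel, Hoxd9 is the 1 probe lower in ethanol, and single kidneys such as ethanol 6 for Hoxd4 (10.44) and control 6 for Hoxd3 (6.37) stand apart.

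Among the posterior genes Hoxd9 stood on the lower side by both probes. Group 9 genes act in limb, axial skeleton and mammary development. The probe ILMN_1216475 read 9.13, 8.32, 8.70, 9.32, 8.94 and 9.15 in ethanol and 9.65, 8.90, 9.23, 9.64, 9.23 and 9.45 in control kidneys. Ethanol 2 and 3 were lowest, and controls 1, 4 and 6 lay above every ethanol kidney. The difference was -0.42 ± 0.18 SE (exact permutation p = 0.0498, limma adjusted p = 0.388), and its limma p was no longer under 0.05 without ethanol 2, ethanol 3, control 1, control 4 or control 6. The probe ILMN_2800183 differed by -0.37 ± 0.20 SE (exact permutation p = 0.134), with a limma p under 0.05 without ethanol 6 or control 2, and both Hoxa9 probes lay on the same side at -0.18 and -0.23. Hoxb9 and Hoxc9 gave 0.04 each, so the lean of group 9 was that of Hoxa9 and Hoxd9.

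Of the 57 Hox probes, 9 (15.8%) were over background in 1 group only, against 10.1% of all probes, and none of the 9 entered the test. For 7 of them this was 1 kidney. The other 2 were over background on 5 arrays of a group and none of the other, a split of 5 or 6 to none that 0.0685% of all probes showed, and their values are given as a description, since that split chose them. Hoxa13 by ILMN_1237317 was over background in 5 of 6 ethanol and 0 of 6 control kidneys, at measured means of 5.26 ± 0.24 in ethanol and 4.86 ± 0.18 in control kidneys (SD, n = 6 each). Its ethanol mean lay 1.18-fold above the mean of the lowest signals over background in the control kidneys. That figure carries no error and is no lower limit. Its brighter probe ILMN_3087004 differed by 0.01. Hoxa3 by ILMN_1234863 was over background in 0 of 6 ethanol and 5 of 6 control kidneys, at 4.74 ± 0.17 in ethanol and 5.25 ± 0.34 in control kidneys. Its control mean lay 1.15-fold above the mean of the lowest signals over background in the ethanol kidneys, again with no error attached. The other 3 Hoxa3 probes were over background on 0, 0 and 1 array. Both were singled out after the values were seen.

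Over the 12 kidneys the Hox genes did not vary as one block. Between the 33 tested probes there were 517 pairs of different genes, and the median Pearson's r was 0.05, against 0.00 over all pairs of tested probes on the array. The quartiles of these pairs ran from -0.21 to 0.32, and over all tested probes from -0.27 to 0.28. Pairs within a cluster had a median of 0.13 (116 pairs) and pairs between clusters 0.04 (401 pairs). Pairs within a paralog group had a median of 0.09 (33 pairs). Anterior probes had a median of 0.39 among themselves over 21 pairs, also 0.39 after each value was centred on its group mean, and 0.29 without control 6. Central pairs had a median of 0.05 and posterior pairs -0.04, and anterior with posterior pairs 0.05. Pairs share arrays and genes, so these medians describe the 12 kidneys and carry no test.

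Even probes of the same gene often varied apart. The 2 probes of Hoxd9 had an r of 0.88 and those of Hoxb7 0.84. The 2 probes of Hoxa2 had 0.59, of Hoxc10 0.48 and of Hoxa9 0.24. The 6 pairs of Hoxb3 probes ran from -0.04 to 0.44. The median SD within groups was 0.26 over the tested Hox probes and 0.27 over all tested probes.

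No pair of genes passed adjustment over the 517 pairs, by Pearson's r or by Spearman's rho, while 72 pairs (13.9%) had an unadjusted permutation p under 0.05 by r and 61 by rho. An r was over 0.6 in size for 12.6% of the Hox pairs and for 11.3% of all pairs of tested probes. The pair with the highest r was Hoxa5 with the Hoxb3 probe ILMN_2450689, at an r of 0.90 (permutation p = 0.00025, adjusted p = 0.0646) and a rho of 0.73 (permutation p = 0.0088, adjusted p = 0.267). Without the 2 kidneys farthest from the median of Hoxa5, r was 0.77. Hoxa5 with Hoxd10 had an r of 0.87 (permutation p = 0.00018, adjusted p = 0.0646), a rho of 0.76 (permutation p = 0.0055, adjusted p = 0.262) and 0.69 without the 2 farthest. The same Hoxb3 probe with Hoxd10 had an r of 0.81 (permutation p = 0.00093, adjusted p = 0.0703), a rho of 0.62 (permutation p = 0.0337, adjusted p = 0.369) and 0.66 without the 2 farthest. These 3 genes lie in 3 clusters.

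The other 3 of the 6 highest pairs held Hoxa11 with Hoxc10, and Hoxd4 with Hoxd3 and Hoxc6. Hoxa11 with the Hoxc10 probe ILMN_2836885 had an r of 0.82 (permutation p = 0.0047, adjusted p = 0.122) and a rho of 0.55 (permutation p = 0.0662, adjusted p = 0.457), but 0.18 without the 2 farthest kidneys. With the other Hoxc10 probe, ILMN_2836888, Hoxa11 had an r of 0.79 (permutation p = 0.006, adjusted p = 0.129) and a rho of 0.79 (permutation p = 0.0035, adjusted p = 0.222), and 0.78 without the 2 farthest, so the relation rested on those kidneys by 1 probe and not by the other. Hoxd3 with its neighbour Hoxd4, whose spans overlap, had an r of 0.81 (permutation p = 0.0037, adjusted p = 0.119), a rho of 0.76 (permutation p = 0.006, adjusted p = 0.262) and 0.67 without the 2 farthest. Hoxc6 with Hoxd4 had an r of 0.81 (permutation p = 0.0022, adjusted p = 0.0875), a rho of 0.69 (permutation p = 0.0153, adjusted p = 0.267) and 0.65 without the 2 farthest.

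The 3 lowest pairs all held Hoxd9. It ran against Hoxa5 by ILMN_1216475, with an r of -0.83 (permutation p = 0.0012, adjusted p = 0.0703), a rho of -0.84 (permutation p = 0.0012, adjusted p = 0.180) and -0.82 without the 2 farthest kidneys. By ILMN_2800183 it ran against Hoxd10, the next gene of its own cluster, with an r of -0.83 (permutation p = 0.00074, adjusted p = 0.0703), a rho of -0.72 (permutation p = 0.0105, adjusted p = 0.267) and -0.64 without the 2 farthest. By the same probe it ran against Hoxb3 (ILMN_2450689) with an r of -0.82 (permutation p = 0.0012, adjusted p = 0.0703), a rho of -0.56 (permutation p = 0.0622, adjusted p = 0.448) and -0.57 without the 2 farthest.

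**Figure D4:**
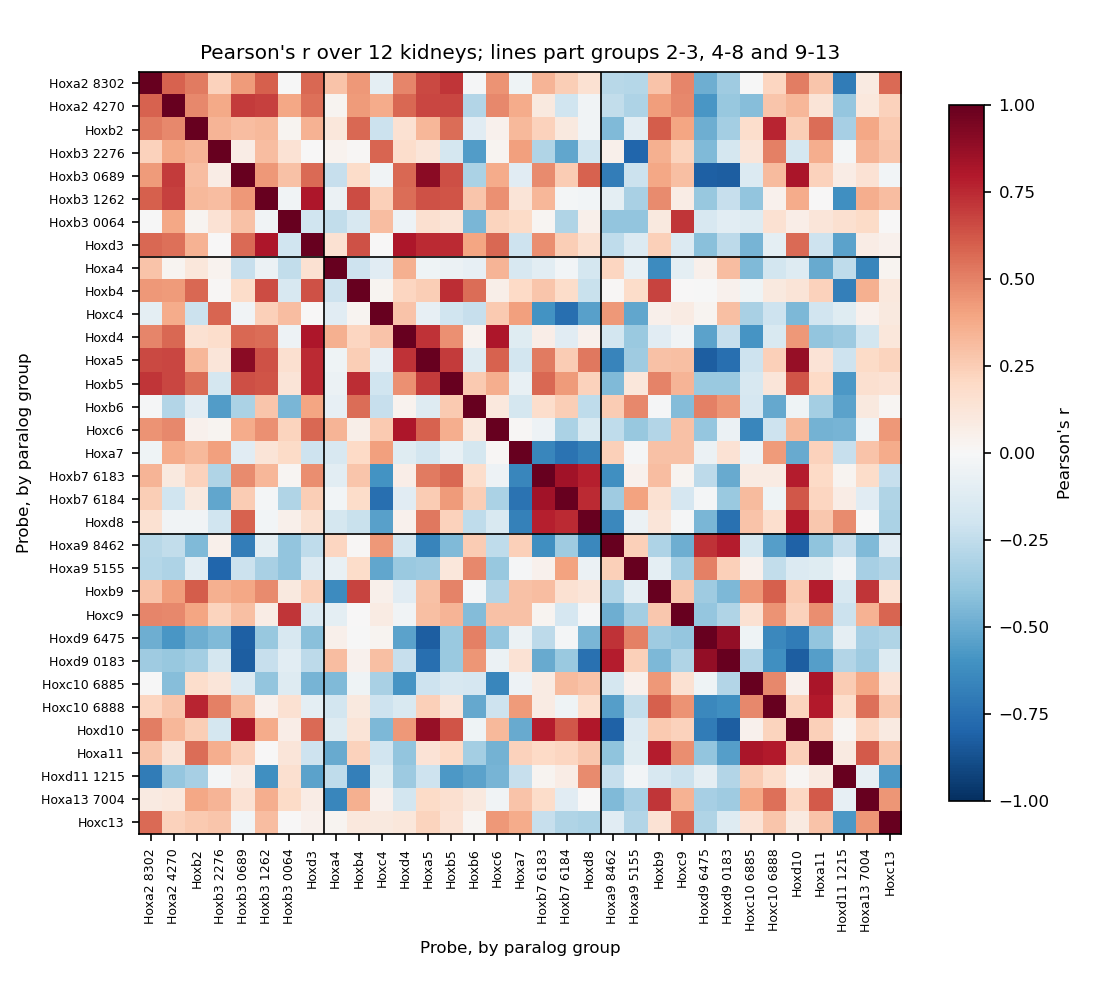
Pearson's r over the 12 kidneys for each pair of the 33 tested Hox probes, ordered by paralog group, with lines between groups 2 to 3, 4 to 8 and 9 to 13; digits after a name end the probe's ID. The anterior block has a median of 0.39 over pairs of different genes, and the Hoxd9 probes form blue stripes against Hoxa5, Hoxb3 and Hoxd10.

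Of the probes in the pairs named above, those of Hoxd9, Hoxd10 and Hoxa5 and the Hoxb3 probe ILMN_2450689 also followed the main axis of the arrays. The others followed it less. Their r with the first principal component was 0.41 for Hoxd3, 0.36 for Hoxd4, 0.18 for Hoxc6 and 0.49 for Hoxa11. For Hoxc10 it was 0.22 (ILMN_2836885) and 0.50 (ILMN_2836888). Of 330 relations of the 33 probes with 8 marker lists, the first principal component and the share of probes over background, 5 passed adjustment by r, all with the principal component, and 1 by rho. The component is made from the tested probes themselves. An r of at least 0.848 in size with it was held by 5 of the 33 Hox probes (15.2%) and by 7.73% of all tested probes. That limit is the r of Hoxa5, the weakest Hox probe that passed, so it fixed the Hox count. No excess among Hox probes can be read from these shares, and both Hoxd9 probes are among the 5. Hoxd9 (ILMN_2800183) had an r of -0.94 with the component (permutation p = 1e-05, the smallest that 100000 resamples can give, adjusted p = 0.0033), a rho of -0.90 (permutation p = 0.00013, adjusted p = 0.0429) and -0.87 without the 2 farthest kidneys. Its other probe had an r of -0.86 (adjusted permutation p = 0.0317) and a rho of -0.87 (adjusted permutation p = 0.0759), and -0.77 without the 2 farthest. Hoxd10 had an r of 0.91 (adjusted permutation p = 0.0148) and a rho of 0.80 (adjusted permutation p = 0.200), and 0.80 without the 2 farthest.

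Hoxb3 (ILMN_2450689) had an r of 0.86 with the component (adjusted permutation p = 0.0317), a rho of 0.71 (adjusted permutation p = 0.322) and 0.69 without the 2 farthest kidneys. Hoxa5 had an r of 0.85 (adjusted permutation p = 0.0317), a rho of 0.77 (adjusted permutation p = 0.244) and 0.72 without the 2 farthest. After values were centred on group means the r of these 5 probes was -0.92, -0.80, 0.88, 0.82 and 0.80 in the order given, so it held within the groups. Without a covariate, 6 Hox probes had an unadjusted p under 0.05. With the component as a covariate in limma, a setting chosen after the data were seen, 3 had one, 2 higher and 1 lower. The share of all tested probes was 7.53%, and the 3 need not all be among the 6. Hoxa5 then differed by 0.23 and Hoxb3 (ILMN_2450689) by 0.25, both no longer under 0.05. The Hoxd9 probes differed by -0.14 and 0.0036, the second with its direction turned. Hoxa2 (ILMN_2874270) kept a difference of 0.39 and a p under 0.05. The component's own part in the differences was not tested further.

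**Figure D5:**
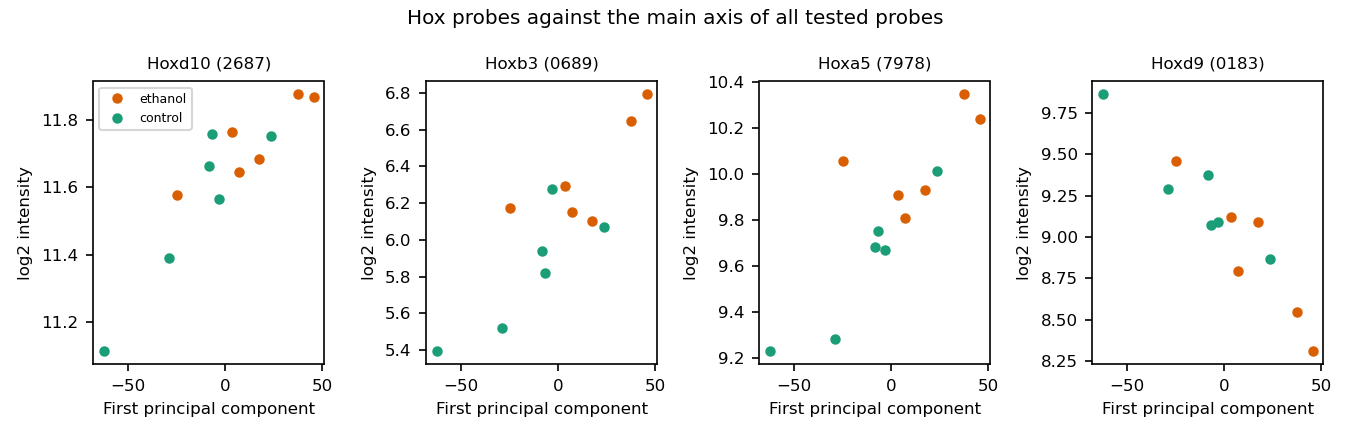
Log2 intensity of 4 Hox probes in each kidney (points, ethanol and control in 2 colours) against the kidney's score on the first principal component of all tested probes (no unit). Hoxd10, Hoxb3 and Hoxa5 climb along the component (r from 0.85 to 0.91) and Hoxd9 descends (-0.94), with control 4 at the low end of the axis and ethanol 2 and 3 at the high end.

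None of the marker lists passed adjustment with any Hox probe. The collecting duct and ureteric bud list (14 of 15 genes tested, Calb1 over background on none) had its highest r, 0.75, with Hoxb4 (permutation p = 0.0077, adjusted p = 0.206; rho 0.69, permutation p = 0.0173, adjusted p = 0.407), and then with Hoxb7 (ILMN_2946183), at 0.72 (permutation p = 0.0072, adjusted p = 0.206; rho 0.62, permutation p = 0.0367, adjusted p = 0.461). Without the 2 farthest kidneys these were 0.35 and 0.50. The other Hoxb7 probe, ILMN_2946184, had an r of 0.70 (permutation p = 0.0129, adjusted p = 0.250) and a rho of 0.81 (permutation p = 0.0022, adjusted p = 0.181) with the list, and 0.67 without the 2 farthest. The list's mean centred level ran from -0.22 to 0.18 in ethanol and from -0.44 to 0.30 in control kidneys, with control 6 lowest. Control 6 was also lowest for the urothelium and ureter list, at -0.62 against -0.34 to 0.52 in the other 11 kidneys, and the lowest kidney for Hoxa2, Hoxb2, Hoxb4, Hoxb5, Hoxb9, Hoxd3, Hoxd4 and the Hoxb3 probe ILMN_3071262. Their part in each other was not tested.

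The lymphocyte list (8 of 10 genes on the array tested) ran the other way. Its mean ran from -0.45 to 0.28 in ethanol and from -0.09 to 0.95 in control kidneys, with control 6 highest (exact permutation p = 0.039 for the group means, unadjusted). Its genes were uneven: Cd8b1 averaged 12.88 and Cd3d 5.31, and Ccl5 ran from 5.42 to 9.60. Ptprc differed by 0.09 in ethanol minus control, and the other genes lay below 0. The r with the list was below 0 for 24 of the 33 Hox probes, and the share over all tested probes was not counted. The lowest were those of Hoxd3, at -0.82 (permutation p = 0.004, adjusted p = 0.146; rho -0.60, permutation p = 0.0424, adjusted p = 0.467), and Hoxb5, at -0.82 (permutation p = 0.0031, adjusted p = 0.129; rho -0.50, permutation p = 0.0981, adjusted p = 0.678). Without the 2 farthest kidneys they were -0.49 and -0.56. Of the 5 probes at an unadjusted p under 0.05 that read higher in ethanol, Hoxb3 had -0.76 by ILMN_3071262 (0.0015 without the 2 farthest kidneys). By ILMN_2450689 it had -0.60 (-0.61). Hoxa5 had -0.73 (-0.61), Hoxa2 (ILMN_2874270) -0.72 (-0.49) and Hoxd4 -0.65 (-0.61), with no adjusted permutation p under 0.05. These probes were picked as higher in ethanol, and the list's mean was lower there. An r below 0 over all kidneys is therefore in part built in. After values were centred on group means, the r was -0.63, -0.34, -0.56, -0.53 and -0.48 in the order given. The list's part in the differences of these probes was not tested. The fat list varied widely, from -1.76 to 1.69 in ethanol and from -1.73 to 1.10 in control kidneys, and its r with the Hox probes ran from -0.59 to 0.70. It was highest with Hoxb5 (permutation p = 0.0094, adjusted p = 0.206), then Hoxa2 (ILMN_2618302) at 0.64 and Hoxc9 at 0.61, and lowest with Hoxd11. Without the 2 farthest kidneys these were 0.47, 0.55, 0.62 and -0.33. The part of fat in the Hox values was not tested. The stroma list (10 of 12 tested, Postn and Fbln5 over background on none) gave -0.40 to 0.65, and the red cell list (4 of 5 tested) gave -0.59 to 0.44. Of the 11 adrenal genes only Pnmt was tested, so adrenal tissue could hardly be followed.

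The genes that work with Hox proteins were mostly over background, and none had an adjusted p under 0.05. For these lists each gene was represented by its brightest tested probe, and 9.67% of all 12618 genes so represented had an unadjusted p under 0.05 (medians below are beside 0.02 over those genes). Of the 12618 genes, 6891 lay above 0 and 5727 below. All 8 Hox cofactor genes on the array were tested, of the Pbx, Meis and Pknox families that bind DNA with Hox proteins, and 4 lay above 0 and 4 below with a median of -0.02 and none at an unadjusted p under 0.05. Other tested probes, outside these counts, often differed. Meis1 had -0.04 by its brightest probe and 0.32 and 0.57 by the others, and Pbx2 had -0.26 and then 0.08 and 0.11. Pknox1 had 0.19 and then -0.30, and Pknox2 0.09 and then -0.10. Meis2 had 0.19 and then 0.27 to 0.57, and Meis3 -0.16 and then -0.06. Of the genes that act upstream of Hox in the embryo, such as Cdx and retinoic acid genes, 8 of 14 on the array were tested, 4 on each side of 0 (median -0.03), with none at an unadjusted p under 0.05.

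Partners and targets of Hox in the kidney had 9 of 15 genes tested, 7 above 0 and 2 below (median 0.05), with none at an unadjusted p under 0.05. Six2, Eya1, Gdnf and Ret, genes of the inductive stage of the kidney, were not among the 9, while Pax8, Lhx1, Sall1, Gata3 and Foxd1 were. Genes that flank the 4 clusters had 13 of 16 tested, 11 above 0 and 2 below (median 0.09), and again none at an unadjusted p under 0.05.

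Chromatin regulators of Hox genes, the Polycomb and trithorax proteins that keep Hox genes silent or active, had all 27 genes on the array tested, with 13 above 0 and 14 below and a median of -0.01. Unadjusted, 6 of the 27 had a p under 0.05, 4 higher and 2 lower, and no adjusted p was under 0.370. Kat6a, a histone acetyltransferase gene, averaged 5.98 ± 0.27 in ethanol and 6.66 ± 0.26 in control kidneys (SD, n = 6 each, exact permutation p = 0.0022, limma adjusted p = 0.370). Cbx8, a Polycomb subunit gene, averaged 7.10 ± 0.16 in ethanol and 7.50 ± 0.09 in control kidneys (exact permutation p = 0.0022, limma adjusted p = 0.379). For both the groups did not overlap, as for 0.484% of all tested probes, and 0.0022 is the smallest p that 6 against 6 allows. Bptf, a nucleosome remodelling subunit gene, averaged 10.00 ± 0.21 in ethanol and 9.61 ± 0.22 in control kidneys (exact permutation p = 0.0152). The Polycomb gene Eed averaged 10.58 ± 0.18 in ethanol and 10.18 ± 0.30 in control kidneys (exact permutation p = 0.0108), with a second probe at -0.07.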

How the data were processed

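Whole-kidney RNA was amplified to biotin-labelled cRNA and read on Illumina arrays, 1 array for each kidney, per the labels' protocols. The deposited values are linear probe intensities, background-subtracted as their values below 0 show, and the authors' software was GenomeStudio, per the submitters' processing notes. The genome build is not given in the sources used here. A second table with 24 columns of values was not used, since its column names match no sample. Gene symbols came from the platform annotation: 34885 probes had 1 symbol, 18 several and 10378 none. All 57 Hox probes matched a gene number in the RefSeq table.

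The background of each array was taken as the mode of its values below the 0.6 quantile (kernel bandwidth 2), with the spread below that mode. A probe over this background at a normal probability under 0.05 on at least 6 of 12 arrays was tested. Values were corrected by normexp with an offset of 16, quantile normalized and taken to log2. Ethanol minus control was fitted with limma 3.58.1 in R 4.3.3, with Benjamini-Hochberg adjustment over all 23984 tested probes, and the fit was tested on simulated data. A p for 1 probe came from the exact permutation of 924 group assignments, and the p of a correlation from 100000 resamples (numpy 2.4.6). Ranks for Spearman's rho came from scipy 1.17.1. Correlations were adjusted over 517 pairs, or over 330 relations with marker lists and array measures. The number of arrays limits the precision.

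The members and lists were chosen with earlier results of these data known. Values in every kidney are given for the 8 tested Hox probes with the smallest unadjusted p, for Hoxb7, for groups 10 and 11 and for genes whose tested probes differ in sign. Of the other lists, up to 4 genes at an unadjusted p under 0.05 are named. Alternatives covered background correction, normalization, filters, array weights, the variance prior, a replicate block and each kidney left out. The principal component as a covariate, and the medians by position without control 6, were chosen after seeing the data.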

Additional observations from a re-analysis of the deposited data

Results flagged for a closer look

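In 10 of 68 groups of 6 kidneys (the 33 tested Hox probes and their mean, in ethanol and in control), 1 kidney lay apart from the other 5 by more than Dixon's 95% limit. Chance alone gives about 1 in 20 only for independent groups of normal values. The 68 groups share arrays and, in part, genes, and the share over all tested probes was not counted, so no excess among Hox probes can be read from this. The gap to the nearest kidney, as a share of the whole range of the group, was 0.747 for ethanol 6 at the high end of Hoxd3 (8.69 on the log2 scale). Ethanol 6 was also apart at the low end, with gaps of 0.754 for Hoxb7 (ILMN_2946183, 11.37), 0.631 for Hoxc10 (ILMN_2836885, 8.54) and 0.630 for Hoxd8 (12.61). Ethanol 2 was high for Hoxb2 (0.662, at 10.05), and ethanol 5 was low for Hoxb4 (0.723, at 9.14). Among the controls, control 6 was low for Hoxb4 with a gap of 0.802 (8.41, next 9.52). Control 4 was low for Hoxd8 (0.789, at 12.32) and high for Hoxa7 (0.723, at 11.09, next 10.67), and control 2 was high for Hoxa11 (0.663, at 7.77). These 10 flags fall on 8 genes, and ethanol 6 holds 4 of them.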

How the results depend on the processing

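No Hox probe had an adjusted p under 0.05 in limma under any alternative run, and 2 of all tested probes did with the deposited values as they stand. The count of Hox probes at an unadjusted p under 0.05 was 6 or 7 of 33 under the other settings of background, normalization, weights and variance prior, 8 of 57 with no filter, and 3 with the first principal component as a covariate, a setting added after seeing the data. The median Hox difference was 0.0024 with that covariate, and ran from -0.0036 (without ethanol 2) to 0.09 (without control 2) with 1 kidney left out. Differences over 0.1 in size that moved by over 1.5 times without 1 kidney, beside those already given, were Hoxb5 (0.03 without control 6), Hoxd8 (0.02 without control 4), Hoxb6 (-0.08 without control 3, -0.10 without ethanol 2), Hoxc10 by ILMN_2836885 (-0.09 without ethanol 6), Hoxa9 by ILMN_1258462 (-0.08 without ethanol 2, -0.10 without control 4, -0.27 without ethanol 6) and by ILMN_2645155 (-0.13 without ethanol 5), and Hoxb3 by ILMN_3150064 (0.11 without ethanol 3, 0.24 without ethanol 1) and by ILMN_1232276 (0.08, 0.13 and 0.30 without controls 1, 3 and 4, 0.29 and 0.10 without ethanol 4 and 5). The count of Hox probes at an unadjusted p under 0.05 ranged, with 1 kidney left out, from 4 (without ethanol 3, control 1 or control 6, where 7.71%, 9.28% and 9.32% of all tested probes had such a p) to 9 (without control 2, 15.9% of all). Whether the replicate numbers pair the kidneys could not be decided from 6 correlations, and the labels give no dam or litter. Correlations of same-numbered kidneys ran from 0.001 to 0.46, and 1 of 6 ethanol kidneys correlated best with its own number. With the replicate block, 7 Hox probes met the unadjusted cutoff of 0.05, as did 14.8% of all tested probes instead of 12.2%. Of the chromatin regulators 10 met it instead of 6, and the lowest adjusted value of a Hox probe was 0.132 instead of 0.379. Array quality weights gave 1 cofactor, 1 kidney partner and 1 upstream gene instead of 0, and no filter gave 1 upstream gene. With 1 kidney left out these lists ranged from 0 to 2 cofactors, 0 to 1 kidney partners, 0 to 1 upstream genes and 0 to 1 cluster neighbours.

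An offset of 50 gave smaller differences for the Hoxb3 probes with the smallest p, 0.35 (ILMN_2450689) and 0.26 (ILMN_3071262). Directions turned for the probes below, all within 0.15 of 0 in the fit reported apart from Hoxd9 (ILMN_2800183, -0.37) and Hoxa9 (ILMN_1258462, -0.18), and the cause was not tested. Median scaling gave -0.0043 for Hoxa13, -0.0143 for Hoxa4, 0.0088 for Hoxa7, 0.0029 for Hoxb2, 0.000491 for Hoxb7 (ILMN_2946184) and 0.0309 for Hoxc10 (ILMN_2836888). Array weights gave -0.0084 for Hoxa4, 0.03 for Hoxa7 and 0.038 for Hoxc10 (ILMN_2836888). The deposited values as they stand gave 0.0056 for Hoxa7, 0.027 for Hoxc10 (ILMN_2836888) and -0.0859 for Hoxc13, and no background correction gave -0.104 for Hoxc13. The principal component as a covariate gave -0.0553 for Hoxa13, -0.000252 for Hoxa2 (ILMN_2618302), 0.0517 for Hoxa7, 0.0875 for Hoxa9 (ILMN_1258462), -0.0321 for Hoxb7 (ILMN_2946183), -0.117 for Hoxb9, -0.012 for Hoxc13, -0.0243 for Hoxd11, -0.0456 for Hoxd8 and 0.0036 for Hoxd9 (ILMN_2800183). With 1 kidney left out, the difference ran from -0.14 to 0.0191 for Hoxa11, from -0.0461 to 0.0824 for Hoxa13, from -0.0438 to 0.0509 for Hoxa4, from -0.055 to 0.0679 for Hoxa7, from -0.079 to 0.019 for Hoxb2, from -0.255 to 0.0228 for Hoxb4, from -0.121 to 0.0165 for Hoxb7 (ILMN_2946184), from -0.0779 to 0.147 for Hoxb9, from -0.0864 to 0.0592 for Hoxc10 (ILMN_2836888), from -0.0831 to 0.118 for Hoxc13 and from -0.0631 to 0.0998 for Hoxd11. Probes near background, such as Hoxc13, limit what can be read.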
